A study of Bos taurus with 12 samples.

Results

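The cholesterol synthesis genes described here are HMGCS1, FDPS, IDI1, FDFT1, SQLE, LSS and DHCR7, which encode enzymes of the pathway, and INSIG1, which encodes a sterol-responsive regulator of it. Every probe set whose only gene symbol was one of these 8 genes was taken. The array had such probe sets for 7 of the 8 genes, 12 probe sets in all, while IDI1 had none and was not analysed here. Of these, 7 probe sets of 6 genes were among the 10000 brightest probe sets of the array, which were tested. All 3 probe sets of LSS and 2 of the 3 of FDFT1 were dimmer, so LSS was not among the 5212 genes tested, of 9155 genes with a symbol on the array.

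The intralobular stroma and the mammary epithelium of the same 6 dry cows were compared, with 1 array of each tissue per cow and 12 arrays in all. Both tissues were from nonlactating pregnant Holstein cows 3 weeks before calving, and all of the tissue explants had spent 2 h in culture before freezing, in a medium to which insulin, hydrocortisone and the thymidine analog BrdU were added. The labels give lactation number 1 for 4 cows, 2 for cow 2 and 3 for cow 1, although the methods call the cows multiparous. The cells were cut out by laser, their RNA was amplified, and it was hybridised to a Bovine GeneChip. The stromal captures were a mixed population in which vessels and obvious immune cells had been avoided, and, per the methods, more slides were pooled for a stromal capture than for an epithelial one. The p-values rest on how the difference between the 2 captures of a cow varied over these 6 cows, whose number limits the precision.

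Cells make cholesterol from acetyl-CoA. The route runs through HMG-CoA to mevalonate, mevalonate is turned into isoprenoid units, farnesyl diphosphate is joined into squalene, and squalene is oxidised and closed into the sterol ring system that the last enzymes trim to cholesterol. The transcription factors of the SREBP family switch on most of these genes together when membrane sterol is low, and INSIG proteins hold the SREBP escort protein back in the endoplasmic reticulum when sterol is plentiful. In the mammary gland cholesterol is needed for the membranes of growing alveoli and for the membrane that surrounds each milk fat globule.

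Values are log2 expression values, so that a difference of 1 is a doubling of the array signal, and differences are stroma minus epithelium within a cow. Array medians lay between 2.95 and 3.08, and values near or under them are close to background. The marker genes followed the labels. Of the luminal epithelial markers, 12 of 14 were lower in stroma, and their mean was 4.06 to 5.31 in stroma and 7.09 to 7.89 in epithelium. Of the fibroblast markers, 12 of 12 were higher in stroma, with list means of 8.61 to 9.64 in stroma and 3.08 to 5.25 in epithelium. Of the endothelial markers, 3 of 4 were higher in stroma (4.50 to 6.53 in stroma and 2.21 to 2.49 in epithelium), as were 2 of 5 T and plasma cell markers, 2 of 7 myoepithelial and smooth muscle markers, 1 of 4 adipocyte markers and 0 of 5 macrophage markers (2 at an unadjusted p under 0.05 in limma). The polyadenylated control RNAs added to the samples averaged 3.88 to 9.99 in stroma, highest in cows 5 and 6, and 2.91 to 6.05 in epithelium. The 3′ probe set of the housekeeping gene GAPDH was brighter than its 5′ probe set, a gap that can widen as RNA breaks down, by 2.31 to 4.75 in stroma and by 0.93 to 3.59 in epithelium. The paper reports RNA integrity numbers and a GAPDH 3′ to 5′ ratio, and took that ratio as a sign of suitable starting RNA. This gap of log2 values is not the same measure as that ratio. The part of the other cell types, of the control RNAs and of RNA quality in the results below was not tested. In such captures fewer cells of a type and less RNA per cell cannot be told apart.

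Some of the cholesterol synthesis genes were expressed at a lower level in stroma than in epithelium. Of the 6 genes tested, HMGCS1, SQLE, FDPS and INSIG1 were lower in stroma, 0 were higher, and FDFT1 and DHCR7 did not pass the threshold (limma, adjusted p under 0.05). Over all genes tested, 9.11% were called in either direction, 4.62% as lower in stroma and 4.49% as higher in stroma. The mean was lower in stroma for all 6 genes, against 60% of all genes tested. The median difference of the 6 genes was -1.78, against -0.20 over all genes tested. By probe set, 5 of the 7 tested were called, all of them lower in stroma, against 9.31% of all probe sets tested in either direction and 4.77% lower in stroma. DHCR7 and 1 of the 5, the dimmer HMGCS1 probe set, had a stromal mean under 3.57, the mean of the dimmest probe set tested. Both were tested only because of their epithelial level. Nothing about the genes as a set is therefore read from these counts or from the median. At an unadjusted p under 0.05 there were 5 of 6 genes, against 23.1% of all genes tested. The plot of values by cow shows every member probe set in both tissues.

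**Figure D1:**
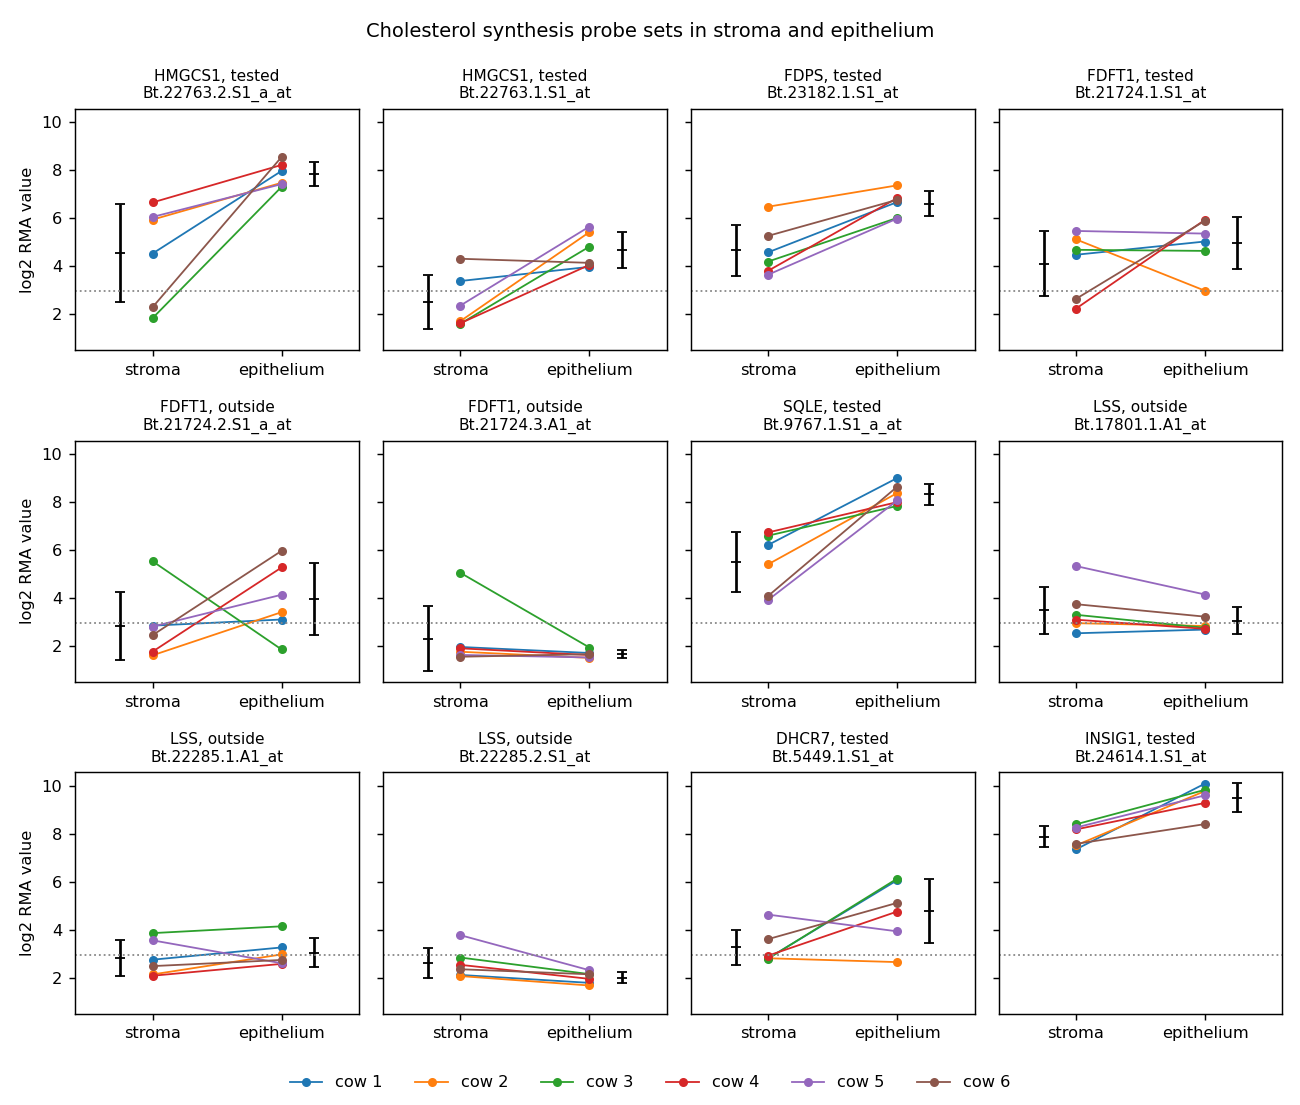
Log2 RMA value (vertical axis) of the 12 member probe sets in the stroma (left) and epithelium (right) of 6 cows, with a coloured line joining the captures of a cow, bars for mean ± SD (n = 6) and a dotted line at the lowest array median, 2.95. The brighter HMGCS1 probe set, SQLE and INSIG1 have no stromal value as high as their lowest epithelial value, whereas the FDFT1 and LSS probe sets overlap.

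HMGCS1 encodes the cytosolic HMG-CoA synthase, which makes HMG-CoA on the way to mevalonate. Its brighter probe set had a lowest, median and highest value of 1.84, 5.24 and 6.66 in stroma, against 7.31, 7.72 and 8.55 in epithelium. The tissues did not overlap, and every cow was lower in stroma. The stroma of cows 3 and 6 stood lowest, at 1.84 and 2.30, which is under the array medians, while the stroma of the other 4 cows lay at 4.53 or higher. Means were 4.55 ± 2.05 in stroma and 7.82 ± 0.50 in epithelium (SD, n = 6 each). HMGCS1 was therefore 3.27 lower in stroma on the log2 scale (SE 0.73, 95% confidence interval of the difference -4.93 to -1.61), or 9.65-fold higher in epithelium (limma, adjusted p = 0.0249). The within-cow difference ran from -6.26 in cow 6 to -1.37 in cow 5. The GAPDH gap was 4.75 in stroma and 2.30 in epithelium in cow 6, and 2.72 in stroma and 0.93 in epithelium in cow 3, and its part in the low HMGCS1 values was not tested. The call was lost without cow 1 (adjusted p = 0.0767), without cow 3 (adjusted p = 0.0646) and without cow 6 (adjusted p = 0.0554), and with all probe sets tested (adjusted p = 0.0716). The difference was -2.67 without cow 6 and -2.83 without cow 3.

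A second HMGCS1 probe set was dim. It had values of 1.61, 2.04 and 4.31 in stroma (lowest, median and highest), against 3.98, 4.48 and 5.65 in epithelium. Its mean in stroma, 2.50, lay under every array median, and its place among the probe sets tested came from its epithelial level. It was lower in the stroma of 5 of 6 cows, cow 6 being the exception with a difference of 0.17, and the tissues overlapped. Its difference of -2.18 (SE 0.58) had an adjusted p of 0.0497 in limma, and without any 1 of the cows the adjusted p lay between 0.0535 and 0.210. Cow 6 thus had the widest gap on the brighter HMGCS1 probe set and a slightly higher stromal value on the dimmer one.

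FDPS encodes farnesyl diphosphate synthase, whose product feeds squalene, dolichol, ubiquinone and protein prenylation. It had values of 3.65, 4.39 and 6.48 in stroma, against 5.99, 6.72 and 7.37 in epithelium (lowest, median and highest). It was lower in the stroma of every cow, but the stroma of cow 2, at 6.48, reached into the epithelial range. FDPS averaged 4.66 ± 1.06 in stroma and 6.61 ± 0.53 in epithelium (SD, n = 6 each). The difference was -1.94 (SE 0.38, 95% confidence interval -2.81 to -1.08), or 3.85-fold higher in epithelium (limma, adjusted p = 0.0142). The widest gap was -3.03, in cow 4, and the narrowest was -0.89, in cow 2. Without cow 1 the adjusted p was 0.0506 at a difference of -1.91.

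FDFT1 encodes squalene synthase, the first enzyme committed to sterols. Its brightest probe set had values of 2.24, 4.58 and 5.47 in stroma, against 2.98, 5.20 and 5.94 in epithelium. The tissues overlapped, and only 3 of 6 cows were lower in stroma. Cows 4 and 6 were lower in stroma by more than 3 log2 units (-3.70 and -3.26), whereas cow 2 was higher by 2.14 and cows 3 and 5 differed by 0.04 and 0.11. The difference of -0.87 (SE 0.75, 95% confidence interval -2.56 to 0.83) did not pass the threshold (limma, adjusted p = 0.527). Leaving out cow 4, 6 or 2 moved it to -0.30, -0.39 or -1.47 in that order. The interval still includes a gap as large as that of FDPS.

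The other 2 FDFT1 probe sets were outside the 10000 tested and were taken from a separate fit to the whole array. Their differences were -1.12 (adjusted p = 0.578) and 0.65 (adjusted p = 0.505). On both of them 1 stromal capture stood apart, that of cow 3. It had 5.53 on one, where the other stromal captures were at 2.85 or lower, and 5.05 on the other, where the other stromal captures ran from 1.55 to 1.96 and all epithelial captures from 1.51 to 1.94.

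SQLE encodes squalene monooxygenase, which oxidises squalene before the ring is closed. It had values of 3.92, 5.81 and 6.73 in stroma, against 7.83, 8.21 and 8.99 in epithelium. The highest stromal value lay more than 1 log2 unit under the lowest epithelial one. Means were 5.49 ± 1.24 in stroma and 8.31 ± 0.44 in epithelium (SD, n = 6 each). The difference was -2.82 (SE 0.53, 95% confidence interval -4.02 to -1.63), or 7.08-fold higher in epithelium, and SQLE had the smallest adjusted p of the member genes (limma, adjusted p = 0.0113). All 6 cows were lower in stroma, cows 5 and 6 by most (-4.14 and -4.55) and cows 3 and 4 by least (-1.24 and -1.26).

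SQLE stayed past the threshold when any 1 cow was left out, with adjusted p between 0.0139 and 0.0406. The stromal captures of cows 5 and 6 also had the highest levels of the added control RNAs, at 9.99 and 9.45. Without both cows the SQLE difference was -2.06, its fold was 4.18 rather than 7.08, and its adjusted p was 0.0654 (limma, 4 cows). The part of the control RNAs in this was not tested.

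LSS encodes lanosterol synthase, which closes the first sterol ring system, and its 3 probe sets were all dim. On the brightest the values were 2.53, 3.20 and 5.33 in stroma, against 2.68, 2.80 and 4.14 in epithelium. Cow 5 had the highest value in both tissues. The difference was 0.43 (SE 0.23, adjusted p = 0.384 in a limma fit of all probe sets). The other LSS probe sets differed by -0.24 (adjusted p = 0.691) and by 0.61 (adjusted p = 0.230). The last was higher in the stroma of 6 of 6 cows, but both tissue means, 2.62 in stroma and 2.00 in epithelium, lay below every array median and give no direction. No LSS probe set passed after adjustment at these signal levels.

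DHCR7 encodes the reductase that makes cholesterol in the last step of one branch of the pathway. It had values of 2.80, 2.87 and 4.63 in stroma, against 2.65, 4.94 and 6.13 in epithelium. Most stromal captures lay near the array medians, and 4 of 6 cows were lower in stroma. Cows 1 and 3 had the widest gaps (-3.25 and -3.33), whereas cows 2 and 5 were higher in stroma by 0.16 and 0.70. DHCR7 averaged 3.26 ± 0.74 in stroma and 4.77 ± 1.33 in epithelium (SD, n = 6 each). The difference of -1.51 (SE 0.60, 95% confidence interval -2.87 to -0.15) had an unadjusted p of 0.0332 and did not pass after adjustment (limma, adjusted p = 0.167). It did not pass under any of the 14 alternative settings in which it was tested, where the adjusted p ranged from 0.0846 to 0.362.

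INSIG1, the sterol-responsive brake on SREBP processing and itself an SREBP target, ranked 519 by mean among all probe sets, the highest rank of the 12. Its values were 7.34, 7.87 and 8.39 in stroma, against 8.40, 9.68 and 10.1 in epithelium. The highest stromal and the lowest epithelial value nearly touched. Means were 7.87 ± 0.45 in stroma and 9.49 ± 0.60 in epithelium (SD, n = 6 each). The difference was -1.62 (SE 0.38, 95% confidence interval -2.48 to -0.75), or 3.07-fold higher in epithelium (limma, adjusted p = 0.0313), and all 6 cows were lower in stroma.

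INSIG1 was lower in stroma by 2.74 and 2.26 in cows 1 and 2, and by 0.82 to 1.44 in cows 3 to 6. Its call was lost in 7 of 15 alternatives, against 5 for HMGCS1, 2 for FDPS and 1 for SQLE. It was kept without cow 6 (adjusted p = 0.0441) and lost without cow 1 (0.0978), cow 2 (0.0931), cow 3 (0.0645), cow 4 (0.0616) or cow 5 (0.0518), with differences between -1.39 and -1.78. It was also lost with arrays centred by the median of the probe sets tested (difference -1.44, adjusted p = 0.0601).

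Of the 6 genes tested, HMGCS1, SQLE and INSIG1 had every stromal value below every epithelial one, as had 2.97% of all genes tested. With FDPS, 4 of the 6 were lower in the stroma of every cow, as were 9.61% of all genes tested. The size of the gap was not ordered the same way over cows in these 4 genes. Cow 6 had the widest gap for HMGCS1 and SQLE, cow 4 for FDPS and cow 1 for INSIG1, and cow 6 had the narrowest for INSIG1.

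The SD was larger in stroma for 9 of the 12 member probe sets and for 5 of the 7 tested, close to the 67.6% of all probe sets tested. It was 4.09 times as large in stroma for HMGCS1, whereas for the tested probe sets of INSIG1 and DHCR7 the epithelial SD was the larger one. Averaged over the 6 genes tested, each centred on its mean over the 12 arrays, the stroma ran from -1.75 in cow 6 to -0.45 in cow 2 and the epithelium from 0.44 in cow 2 to 1.47 in cow 1. Cow 2 thus had both the highest stromal and the lowest epithelial average.

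The stroma of cow 4 had the highest stromal values of SQLE (6.73) and of the brighter HMGCS1 probe set (6.66). On the dimmer HMGCS1 probe set it had 1.63, which is under the array medians. On the brightest FDFT1 probe set it had the lowest stromal value, 2.24. The same capture had the highest mean of the luminal markers among stromal captures, 5.31, and a KRT7 value of 9.10. KRT7, a keratin of luminal cells, had values of 4.25 to 7.34 in the other stromal captures and 9.51 to 10.4 in epithelium. KRT8, CDH1, CLDN3 and EPCAM were also highest in this stromal capture. The other luminal markers were highest in the stroma of other cows, and PRLR, at 2.13, was lowest in this one. FDPS was low in the stroma of cow 4, with the widest gap of any cow. The part of epithelial RNA in the stromal values was not tested.

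**Figure D2:**
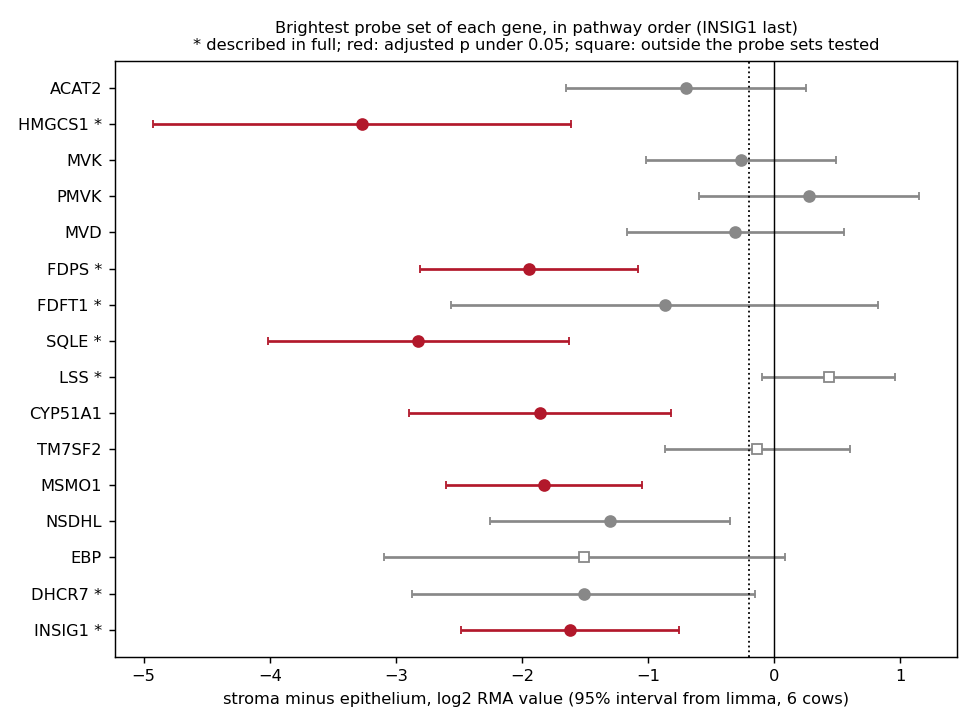
Stroma minus epithelium (log2, horizontal axis) of the brightest probe set of each measured cholesterol synthesis gene in pathway order, as the limma mean over 6 cows with its 95% confidence interval, red where the adjusted p was under 0.05, with open squares for genes outside the 10000 probe sets tested and a dotted line at the median of all genes tested. HMGCS1, FDPS, SQLE, CYP51A1, MSMO1 and INSIG1 are red. The intervals of the early enzymes ACAT2, MVK, PMVK and MVD include 0, as do those of the later FDFT1, LSS, TM7SF2 and EBP.

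Other enzymes of the route from acetyl-CoA to cholesterol were also lower in stroma in 2 cases. Of 18 symbols listed, 9 had a probe set and 7 were tested. Of the 7, 2 were lower in stroma and 0 were higher, against 4.62% lower and 4.49% higher over all genes tested. Their median difference was -0.70. MSMO1, the sterol C4-methyl oxidase, had values of 5.49, 6.08 and 6.54 in stroma, against 7.58, 7.97 and 8.19 in epithelium. No stromal value reached the epithelial range, every cow was lower in stroma, and the difference was -1.83 (SE 0.34, 3.54-fold higher in epithelium, limma, adjusted p = 0.0115).

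CYP51A1, the lanosterol demethylase that acts after LSS, had values of 5.32, 6.57 and 7.23 in stroma, against 7.07, 8.38 and 9.43 in epithelium. All 6 cows were lower in stroma, by 0.70 in cow 3 and by 3.45 in cow 1, and the tissues overlapped slightly. Its difference was -1.86 (SE 0.46, 3.63-fold higher in epithelium, limma, adjusted p = 0.0380). The call was lost without cow 1 (0.109), cow 2 (0.0942), cow 4 (0.0758) or cow 6 (0.0997), with all probe sets tested (0.0629) and with centred arrays (0.0578). NSDHL, which works in the same demethylation sequence, differed by -1.30 (adjusted p = 0.0951). The early enzymes MVK, MVD, PMVK and ACAT2 differed by -0.26, -0.31, 0.28 and -0.70, with adjusted p of 0.356 or higher.

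The genes that sense sterol and process SREBP did not pass the test. Of the 6 tested, 0 were lower and 0 were higher in stroma (limma, 0 at an unadjusted p under 0.05), and their median difference was -0.19. The shares over all genes tested were 4.62% lower and 4.49% higher. SREBF1, which encodes the SREBP proteins best known for driving fatty acid synthesis, had values of 6.32, 7.51 and 10.2 in stroma, against 7.60, 8.57 and 9.96 in epithelium on its brightest probe set. It was lower in the stroma of 5 of 6 cows, and the tissues overlapped widely. Its difference was -0.88 (SE 0.46, 95% confidence interval -1.93 to 0.16, adjusted p = 0.288), and its other 3 probe sets differed by 0.12, -0.02 and 0.31. SREBF2, whose product mainly drives cholesterol genes, differed by -0.13 on its brighter probe set (SE 0.35, 95% confidence interval -0.92 to 0.65, adjusted p = 0.854), an interval that leaves out gaps as large as those of the 4 called genes. A second SREBF2 probe set, outside those tested, was higher in the stroma of 5 of 6 cows, by 0.44 on average (limma, adjusted p = 0.387).

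Among genes of sterol uptake and intracellular transport, 7 were tested, 2 were lower in stroma and 0 were higher, with a median difference of 0.13. The shares over all genes tested were 4.62% lower and 4.49% higher. The 2 were NPC1 and NPC2, which together move cholesterol out of lysosomes. NPC2 had values of 7.20, 8.46 and 8.86 in stroma, against 9.53, 9.98 and 10.2 in epithelium. NPC1 had values of 4.43, 5.31 and 5.73 in stroma, against 5.86, 7.34 and 7.64 in epithelium. Neither gene overlapped between the tissues, as was so in this direction for 2.97% of all genes tested. The differences were -1.66 (SE 0.35, 3.15-fold higher in epithelium, adjusted p = 0.0200) for NPC2 and -1.71 (SE 0.41, 3.27-fold, adjusted p = 0.0331) for NPC1. Both calls were lost without cow 1, 2, 4 or 6, with adjusted p of 0.0587 to 0.0702 for NPC2 and 0.0803 to 0.0964 for NPC1, and that of NPC1 was also lost with centred arrays (0.0557). SCARB1, a lipoprotein receptor, was higher in the stroma of 5 of 6 cows by 1.58 on average, and TMEM97, a regulator of NPC1, was lower in the stroma of 5 of 6 cows with a difference of -1.63, and neither passed after adjustment (0.0795 and 0.0786).

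Among genes of sterol efflux, storage and oxysterols, 6 were tested, 2 were higher in stroma, 0 were lower and 4 did not pass, with a median difference of 0.63. Over all genes tested, 4.49% were higher and 4.62% were lower in stroma. Both called genes, LCAT and CH25H, were at background in epithelium and were tested only because of their stromal level, so nothing about the list is read from this count. LCAT, which esterifies cholesterol on lipoproteins, had values of 6.13, 7.11 and 8.42 in stroma, against 2.21, 2.64 and 3.87 in epithelium. CH25H, which makes 25-hydroxycholesterol, an oxysterol that restrains SREBP processing through INSIG proteins, had values of 5.34, 6.45 and 7.23 in stroma, against 1.21, 2.18 and 3.05 in epithelium. Both genes were higher in the stroma of every cow, with no overlap. The share of all genes without overlap in this direction is not given here, so this describes the 2 genes only.

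The differences were 4.33 for LCAT (SE 0.38, adjusted p = 0.000345) and 4.19 for CH25H (SE 0.41, adjusted p = 0.000480). Their epithelial means, 2.80 and 2.20, lay under the array medians, so the folds of 20.1 and 18.2 are not exact. A second CH25H probe set, outside those tested, differed by 0.25 (adjusted p = 0.561), and the other LCAT probe sets differed by 2.23 (adjusted p = 0.0692) and, outside those tested, by 1.12 (adjusted p = 0.254).

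**Figure D3:**
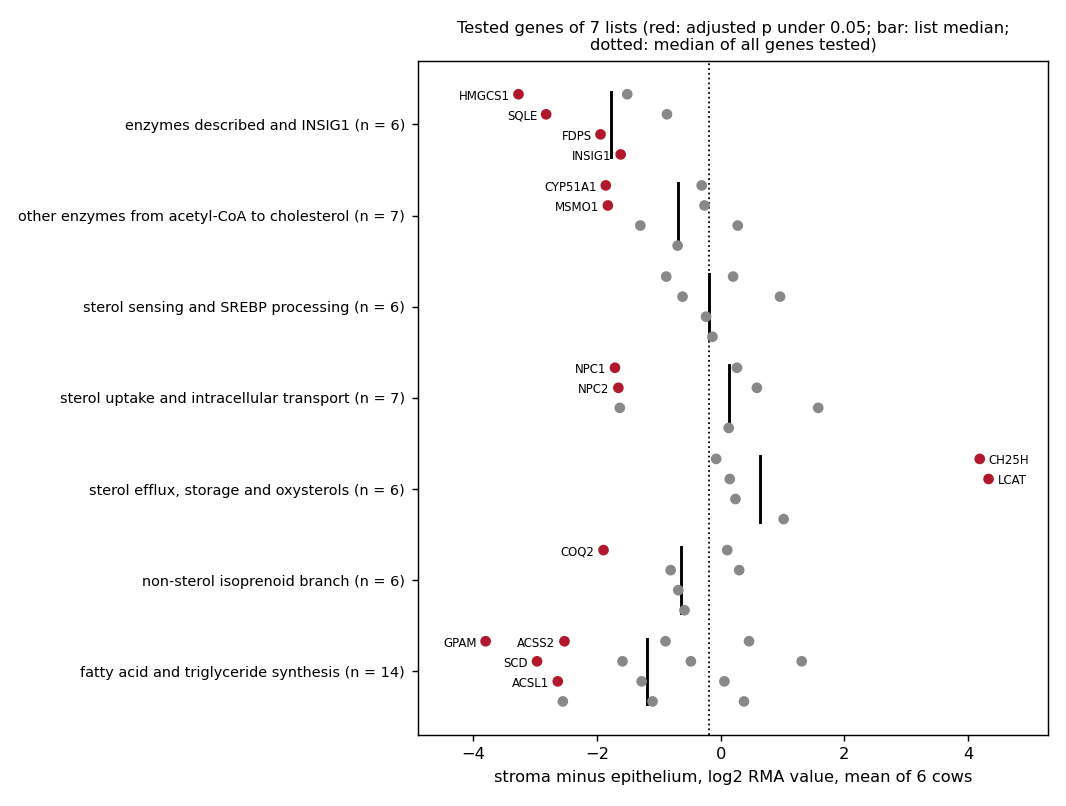
Difference between stroma and epithelium (log2, horizontal axis, mean of 6 cows) of each tested gene in 7 lists of the sterol and lipid pathways, red where the adjusted p was under 0.05, with a bar at each list's median and a dotted line at the median of all genes tested, -0.20. The called genes lie on the left, lower in stroma, in 5 lists, and LCAT and CH25H lie on the right.

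FDPS also supplies branches that do not lead to sterols. Of 6 tested genes of these branches, 1 was lower in stroma and 0 were higher, against 4.62% lower and 4.49% higher over all genes tested, with a median difference of -0.64. COQ2, which attaches the isoprenoid tail of ubiquinone, had values of 2.61, 3.03 and 3.38 in stroma, against 4.31, 4.73 and 6.09 in epithelium. The stromal values were close to background, and no stromal value reached the epithelial range. The difference was -1.90 (SE 0.34, limma, adjusted p = 0.00922). The stromal mean, 2.99, was at the array medians, so COQ2 was tested only because of its epithelial level and its 3.72-fold gap is not exact.

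Fatty acid and triglyceride synthesis genes, many of which SREBP also switches on, included the widest gap toward epithelium of the 7 lists. Of 14 tested, 4 were lower in stroma and 0 were higher, against 4.62% lower and 4.49% higher over all genes tested. Their median difference was -1.19. GPAM, which starts glycerolipid synthesis, had values of 1.82, 3.76 and 5.35 in stroma, against 6.66, 7.53 and 8.23 in epithelium, and differed by -3.80 (SE 0.59, 13.9-fold higher in epithelium, adjusted p = 0.00504). The stromal GPAM values of cows 5 and 6, 2.20 and 1.82, lay under the array medians, so this fold is not exact. Without both cows the GPAM difference was -2.90. SCD, the stearoyl-CoA desaturase, had values of 3.55, 6.34 and 7.80 in stroma, against 6.52, 9.24 and 10.2 in epithelium, and differed by -2.97 (SE 0.45, 7.84-fold, adjusted p = 0.00432). GPAM did not overlap between the tissues, whereas SCD did.

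ACSS2, which makes acetyl-CoA from acetate, had values of 2.49, 4.10 and 4.42 in stroma, against 5.22, 6.26 and 7.73 in epithelium, and differed by -2.53 (SE 0.38, 5.76-fold, adjusted p = 0.00410). ACSL1, which activates long-chain fatty acids, had values of 4.001, 6.26 and 7.77 in stroma, against 7.81, 8.92 and 9.68 in epithelium, and differed by -2.64 (SE 0.53, 6.22-fold, adjusted p = 0.0165). Neither overlapped between the tissues, as was so in this direction for 2.97% of all genes tested. The highest stromal value of ACSL1 came close to its lowest epithelial value. The ACSL1 call was lost without cow 2 (adjusted p = 0.05004, just above the threshold) or cow 4 (adjusted p = 0.0554). ACLY, FASN and ELOVL1, of citrate cleavage, fatty acid synthesis and elongation, were lower in stroma in all 6 cows with differences of -2.55, -1.10 and -1.28, and did not pass after adjustment (0.0659, 0.0795 and 0.106). The mean was lower in stroma for 10 of the 14 genes of this list. ELOVL5, GPAT4, DGAT1 and SCD5 went the other way, by 1.31, 0.46, 0.38 and 0.06, with adjusted p of 0.306 or higher in limma. Over the 6 lists other than the member genes, 46 genes were tested, 9 were lower in stroma and 2 were higher, against 4.62% lower and 4.49% higher over all genes tested. The 2 of 46 higher in stroma are no more than that share. Both of them, LCAT and CH25H, were tested only because of their stromal level, and COQ2, among the 9 lower, only because of its epithelial level. Nothing about the lists together is therefore read from these counts.

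The genes whose values ran most like the average of the 6 member genes over the 12 arrays were NPC2, NCOA4, MSMO1, EFNA1 and MAPK13. Likeness was the root mean square distance between centred log2 values, which was 0.43, 0.44, 0.45, 0.46 and 0.48 for these, among 5206 genes ranked. The member genes themselves lay farther from their own average, at 0.66 for INSIG1 to 1.29 for HMGCS1. NCOA4, a carrier that delivers ferritin to lysosomes, had values of 6.00, 7.13 and 7.57 in stroma, against 7.85, 8.60 and 9.24 in epithelium. All 5 genes were lower in the stroma of every cow, with differences between -1.83 and -1.66, a direction and size that their selection fixed.

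**Figure D4:**
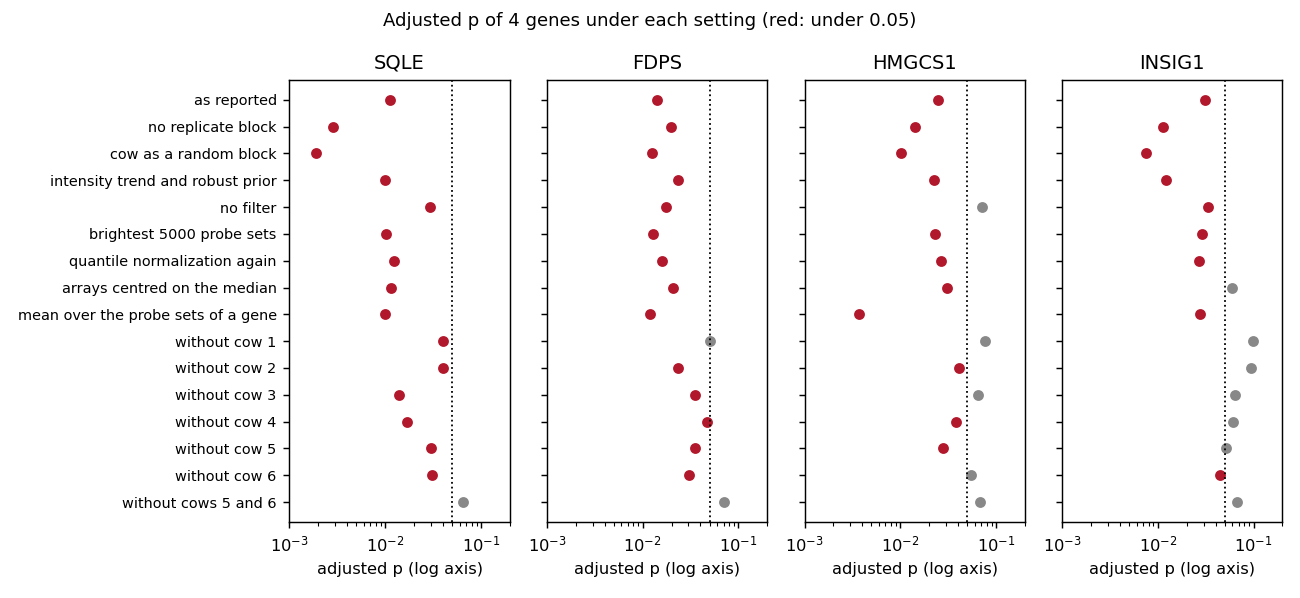
Adjusted p in limma (horizontal axis, log scale) of SQLE, FDPS, HMGCS1 and INSIG1 as reported (top) and under each of 15 alternatives, red where under 0.05, with a dotted line at 0.05. SQLE stays left of the line except without cows 5 and 6, whereas INSIG1 lies right of it in 7 alternatives.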

How the data were processed

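The deposited log2 values, 1 per probe set and array, were made by the authors with RMA and quantile normalization over 24 arrays (BioConductor 2.0), of which these 12 are a part. RMA averages the probes of a set on a log scale, and values near background are compressed. The array has 24128 probe sets, 112 of them controls. Of the others 13292 had 1 symbol, 86 several and 10638 none, and for 13263 the symbol was matched by gene ID, of which 0 differed. No genome build is given in the sources used here, so no coordinates are given.

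In place of the study's detection calls, which were not used here, probe sets were ranked by their mean value, and the 10000 brightest entered the test. Stroma was compared with epithelium in R 4.3.3 with limma 3.58.1 (lmFit and eBayes, the data.table package, version 1.17.8), with cow as a fixed block, two-sided, with Benjamini-Hochberg adjustment over all 10000 and a threshold of 0.05. A gene stood by its brightest tested probe set with 1 symbol. The fit was tested on simulated data. The replicate numbers pair both tissues of 1 cow per the labels, and deviations of paired arrays correlated at 0.0260 to 0.201.

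Some items are not reported here. The member genes and lists were chosen with earlier results of these data known. Named are all member probe sets, of each list up to 5 genes past the threshold, SREBF1 and SREBF2, and the 5 genes with the most similar values. Other genes named (NSDHL, MVK, MVD, PMVK, ACAT2, TM7SF2, EBP, ACLY, FASN, ELOVL1, ELOVL5, GPAT4, DGAT1, SCD5, SCARB1, TMEM97, KRT7, KRT8, CDH1, CLDN3, EPCAM and PRLR) were chosen after their values were seen. As alternatives, the block was dropped or made random, the prior was given an intensity trend and made robust, the filter was removed or tightened to the brightest 5000, arrays were quantile normalized again or centred on the median of their tested probe sets, the probe sets of a gene were averaged, and each cow was left out. Leaving out cows 5 and 6 was chosen after seeing the data.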

Additional observations from a re-analysis of the deposited data

Results flagged for a closer look

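Of 50 groups of 6 captures checked for a value far from the others, 3 held one, all 3 among the 24 groups of member probe sets, and chance gives such a value in about 5% of groups. The gap of the capture to its nearest neighbour, as a share of the whole range, marked each of them. FDFT1 had 5.53 in the stroma of cow 3 on the second brightest of its 3 probe sets, where the next highest stromal value was 2.85 and the lowest 1.61. FDFT1 had 5.05 in the same capture on the dimmest, where the next was 1.96 and the lowest 1.55. The brightest FDFT1 probe set was not marked, and cow 3 differed by 0.04 on it. LSS had 4.14 in the epithelium of cow 5 on the brightest of its 3 probe sets, where the next was 3.22 and the lowest 2.68. All 3 probe sets were outside the 10000 tested.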

How the results depend on the processing

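All 6 tested member genes kept a lower mean in stroma under every alternative in which they were tested, while calls depended on the cows included. The filter left out LSS, whose brightest probe set, near background, was higher in stroma by 0.22 to 0.61 under its 13 alternatives. Without a filter 6 of 7 genes had a lower mean in stroma. Of the member genes, 4 were called with and without the replicate block, 3 without a filter or with centred arrays, and 1 to 3 with a cow left out. Without cow 1 SQLE alone was called, and without cow 3 FDPS and SQLE. Without cows 5 and 6 limma called 0, and 5 had an unadjusted p under 0.05. Of the member probe sets, 5 were called, against 3 without a filter, 3 with centred arrays, 0 without cows 5 and 6 and 1 to 3 with a cow left out. Among the brightest 5000 probe sets, 7 of the 27 tested genes of the 6 other lists were called. Of the 46 genes of these lists tested as reported, 11 were called, against 7 to 12 with a cow left out. Those lower in stroma numbered 9, and 5 to 9 with a cow left out. Those higher in stroma numbered 2, and 2 to 3 with a cow left out, and 0 among the brightest 5000 (0 also at an unadjusted p under 0.05), which do not include LCAT and CH25H. Of the other cholesterol enzymes 2 were called, against 1 without a filter, with centred arrays or without cows 5 and 6, and 1 to 2 with a cow left out. The block changed no call of a member gene.

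Over all probe sets 931 were called, 944 without the block, and 601 without cow 1, 605 without cow 2 and 607 without cows 5 and 6. The share of calls lower in stroma was 51.2%, and 41.1% with centred arrays, which moved the median difference over all probe sets tested to -0.01, against -0.18. Without cows 5 and 6 the adjusted p was 0.0675 for HMGCS1, 0.0708 for FDPS and 0.0675 for INSIG1. Most stromal values of DHCR7, COQ2 and the dimmer HMGCS1 probe set, and all LSS probe sets, lie near background, which limits their differences.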
